A study of Mus musculus with 6 samples.

Results

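The 8 genes described here move glycerol and make glycerol-3-phosphate in fat. They were taken by name: the aquaglyceroporins Aqp7 and Aqp3, the glycerol kinase gene Gk (also written Gyk), the phosphoenolpyruvate carboxykinase genes Pck1 and Pck2, and the glycerol-3-phosphate dehydrogenase genes Gpd1, Gpd1l and Gpd2. All 8 were found among the 55401 genes of the count files, of which 30027 had at least 1 count, and all 8 passed the filter on low counts that left 16807 genes for testing. Of the 8, Gk and Gpd1 rose in the libraries labelled YT-AKO, 2.49-fold and 2.63-fold, and no member was called lower. Over all tested genes, 12.6% were called higher and 9.01% lower. In levels per length (TPM) the groups overlapped for Gk and for Gpd1.

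Subcutaneous white adipose tissue (scWAT) was taken from 8-week-old male mice housed at room temperature, and its total RNA was sequenced, 3 libraries a group. Both groups carried floxed Yap and Taz alleles (Yap fl/fl; Taz fl/fl). The YT-AKO mice also carried AdipoqCre, a Cre recombinase driven by the Adiponectin promoter, which is active in mature adipocytes, so that other cells of the tissue keep the genes. The control mice, named YT-FF, had no Cre, and the sample labels call them WT. The comparison asks how loss of Yap and Taz in adipocytes changed these transcripts in the whole tissue.

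White adipocytes break triglyceride down to fatty acids and glycerol, and much of the fatty acid is esterified again onto glycerol-3-phosphate. Glycerol kinase can make that backbone from glycerol directly, although white fat is known for having little of this enzyme and brown fat for having more. Otherwise it comes from dihydroxyacetone phosphate, which glycolysis or glyceroneogenesis supplies, the latter from pyruvate through oxaloacetate and phosphoenolpyruvate, with the cytosolic carboxykinase Pck1 as its key enzyme. In bulk tissue, fewer cells of a type and less RNA per cell cannot be told apart.

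The libraries held 17740987 to 21838493 counted fragments. Of the targeted genes, Yap1 fell in the libraries labelled YT-AKO (log2 fold change -0.98, edgeR adjusted p = 0.0179), while Wwtr1, which encodes TAZ, had more counts there (2253 to 3015) than in YT-FF (1729 to 1918), at a log2 fold change of 0.89 (edgeR adjusted p = 0.0220). The direction of Wwtr1 RNA goes against the label, and counts over whole exons do not show whether a floxed exon is missing. At the protein level, the study reported by immunoblot that YAP and TAZ were clearly reduced in scWAT of YT-AKO mice. YT-AKO 2 stood apart in composition, with a TMM factor of 0.777 against 0.954 to 1.16 in the other 5 libraries and the most Cfd, 92788 TPM. The adipocyte marker sum was 48582 to 54913 TPM in YT-FF and 87581 to 121473 TPM in YT-AKO, with 4 of 10 markers called higher and none at 0. Without Cfd the sum was 26196 to 34020 TPM in YT-FF and 28685 to 37490 TPM in YT-AKO, so that the groups overlapped. The 8 markers of beige and brown fat summed to 767 to 1066 TPM in YT-FF and 6008 to 10794 TPM in YT-AKO, and 7 of them were called higher.

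Promoter sequences stand here before the values because Pck1, Gk, Aqp7 and Gpd1l belong to the branches compared below and each carries at least 1 of the searched motifs. RefSeq promoter windows of GRCm38.p6, which run from 250 bases before to 50 after the start, were matched for 7 of the 8 genes. Only the 250 bases before the start are printed, 5′ to 3′ on the strand of the gene, with the motifs in capitals.
Pck1, chr2:173152823-173153072, plus strand: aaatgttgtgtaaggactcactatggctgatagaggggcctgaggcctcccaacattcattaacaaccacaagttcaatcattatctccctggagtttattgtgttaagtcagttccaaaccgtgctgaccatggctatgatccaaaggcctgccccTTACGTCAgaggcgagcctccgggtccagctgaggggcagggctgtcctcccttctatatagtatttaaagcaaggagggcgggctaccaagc
Gk, chrX:85776820-85777069, minus strand: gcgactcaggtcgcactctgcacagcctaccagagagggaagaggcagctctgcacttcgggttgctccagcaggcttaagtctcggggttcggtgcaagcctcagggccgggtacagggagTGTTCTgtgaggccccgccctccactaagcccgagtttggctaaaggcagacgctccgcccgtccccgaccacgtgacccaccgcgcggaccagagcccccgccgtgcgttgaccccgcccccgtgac
Aqp7, chr4:41048137-41048386, minus strand: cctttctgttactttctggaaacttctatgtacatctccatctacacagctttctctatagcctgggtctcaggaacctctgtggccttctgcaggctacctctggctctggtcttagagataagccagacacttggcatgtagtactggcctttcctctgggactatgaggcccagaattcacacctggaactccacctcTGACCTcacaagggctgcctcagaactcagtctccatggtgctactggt
Gpd1l, chr9:114933988-114934237, minus strand: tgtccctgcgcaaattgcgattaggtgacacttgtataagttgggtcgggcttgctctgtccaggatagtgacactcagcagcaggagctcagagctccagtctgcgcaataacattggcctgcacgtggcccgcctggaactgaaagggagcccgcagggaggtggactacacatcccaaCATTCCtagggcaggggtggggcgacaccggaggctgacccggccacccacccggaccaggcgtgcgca
The capitals in the Pck1 window are TTACGTCA, a variant of the cAMP response element TGACGTCA, 93 bases before the start. Those in the Gk window are the glucocorticoid receptor motif TGTTCT, 128 bases before the start. The Aqp7 window holds the nuclear receptor motif AGGTCA on its other strand, read there as TGACCT and starting 49 bases before the start. The Gpd1l window holds the TEAD site GGAATG on its other strand, read there as CATTCC, 69 bases before the start, and TEAD proteins are the DNA-binding partners of YAP and TAZ.

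Searched on both strands of all 32851 windows, TTACGTCA was present in 0.499%, TGTTCT in 19.0%, AGGTCA in 16.3% and GGAATG in 14.7%. The full element TGACGTCA was present in 1.79% of all windows and in 0 of the 9 windows of the members. The C/EBP site TTGCNNAA was present in 10.8% of all windows and, among the members, in 1 of the 2 windows of Gpd2. TGTTCT also occurred in both windows of Aqp7, which overlap each other. None of these 6 motifs lies inside another. A match is a description of these letters and not of a bound site.

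Levels per length differed widely between the 8 genes. In YT-FF, Pck1 had the highest level, 2446 TPM ± 869 (SD, n = 3), followed by Gpd1 at 1175 TPM ± 140 (SD, n = 3). Aqp7 (190 TPM), Gpd2 (89.4 TPM), Gpd1l (62.4 TPM) and Pck2 (20.1 TPM) followed in means, and in each of these steps the ranges of the 3 libraries did not overlap. Gk and Aqp3 stood last at 5.03 TPM ± 0.933 and 4.17 TPM ± 0.797 (SD, n = 3), and their ranges overlapped. In the libraries labelled YT-AKO the order of the means was the same, but Gpd1, at 2043 TPM ± 813 (SD, n = 3), overlapped in range with Pck1, at 2229 TPM ± 1019 (SD, n = 3). Gk there (8.37 TPM ± 4.03, SD, n = 3) no longer overlapped with Aqp3 (1.44 TPM ± 0.586, SD, n = 3), while the ranges overlapped for Aqp7 and Gpd2 and for Gpd1l and Pck2.

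Differences between the groups were tested on TMM-normalized counts with edgeR's quasi-likelihood test, and a gene was called at a Benjamini-Hochberg adjusted p under 0.05 over all 16807 genes. Over all genes tested, 12.6% were called higher and 9.01% lower, and the median log2 fold change was -0.02. Of the 8 members, 2 were called higher and 0 lower, and 4 had an unadjusted edgeR p under 0.05, beside 40.8% of all genes tested. DESeq2, which called 16.2% of its genes higher and 12.6% lower, also called Gk and Gpd1 higher and no member lower. In TMM-normalized CPM the groups did not overlap for 4 members, 2 of them higher (Gk and Gpd1) and 2 lower (Gpd1l and Aqp3). Over all genes the groups failed to overlap upward in 25.7% and downward in 25.8%, so these counts of non-overlapping members were close to the background. Differences in mean log2 TPM are given below beside the fit. Gene length cancels in them, and the TPM scale of a library is common to all its genes. For all 8 members they lay below the edgeR log2 fold change by a similar amount. A lower or turned value in TPM is thus not particular to a gene, and no all-gene median in TPM is given.

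**Figure D1:**
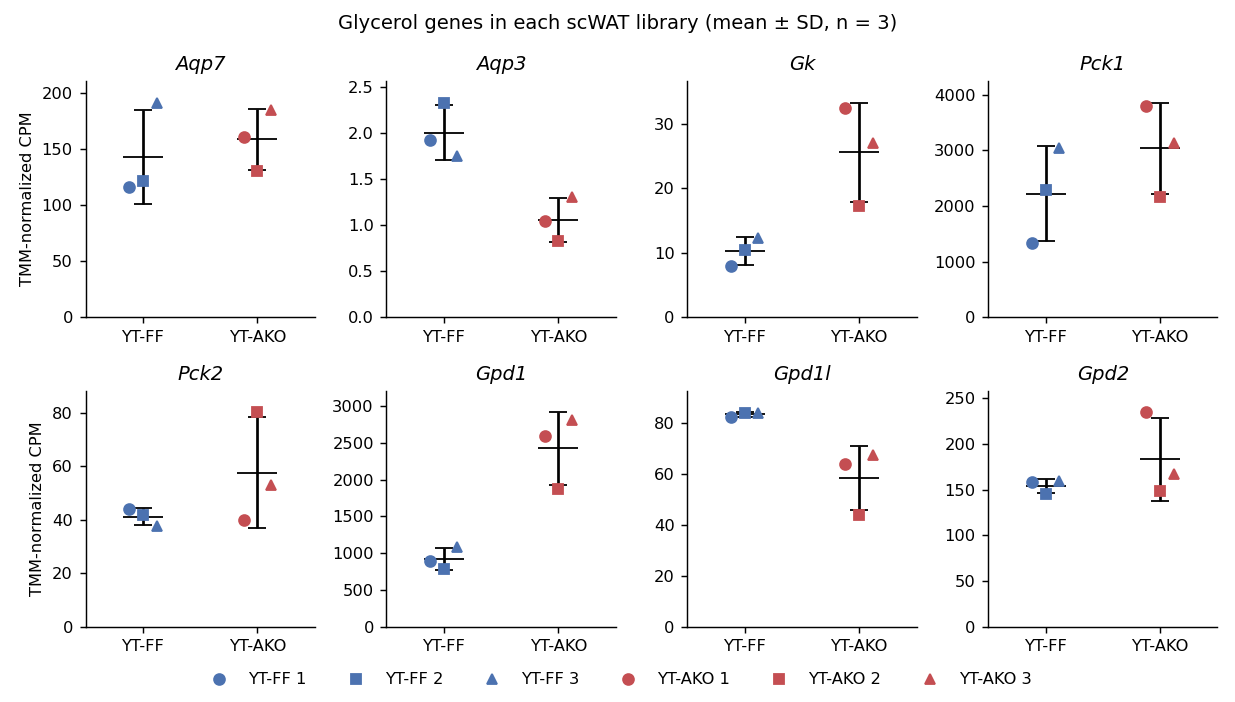
TMM-normalized CPM (vertical axis of each panel, starting at 0 and scaled to the gene) of the 8 glycerol genes in the 3 YT-FF (blue) and 3 YT-AKO (red) scWAT libraries, with the mean ± SD in black. The groups are apart for Gk and Gpd1, which were called higher, and for Gpd1l and Aqp3, which were not called.

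Aqp7 (chr4:41033074-41048139 in mm10, minus strand) encodes the aquaglyceroporin through which adipocytes release glycerol. It measured 116, 122 and 191 CPM in YT-FF 1 to 3 and 160, 131 and 184 CPM in YT-AKO 1 to 3. The groups overlapped, with YT-FF 3 the highest library of all 6. The log2 fold change was 0.15 (SE 0.240, 95% interval -0.41 to 0.71, edgeR adjusted p = 0.665), and the difference in mean log2 TPM was -0.51, with overlap. Endothelial cells of fat also hold Aqp7, and the sum of 6 endothelial markers was 514 to 599 TPM in YT-FF and 415 to 679 TPM in YT-AKO, with none at 0 and 1 of 6 called lower. In YT-AKO 2, Cldn5 alone gave 561 of the 679 TPM. In CPM, Pecam1, Cdh5, Kdr and Tek were each lower in all 3 YT-AKO libraries, as were 25.8% of all tested genes. Cldn5 was higher in all 3, and Emcn overlapped. The part of endothelium in the Aqp7 counts was not tested.

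Aqp3 (chr4:41092722-41098183 in mm10, minus strand) encodes another glycerol channel and had the fewest counts of the 8 genes. Its counts were 45, 53 and 34 in YT-FF and 18, 14 and 22 in YT-AKO. Every YT-AKO library had fewer counts than every YT-FF library. The log2 fold change was -0.92 (SE 0.375, 95% interval -1.78 to -0.05), and the adjusted p from edgeR was 0.108, so Aqp3 was not called. In mean log2 TPM, with the downward shift common to the members, the difference was -1.61, again without overlap. Epithelium is a known site of Aqp3, and the 6 epithelial markers summed to only 5.01 to 6.62 TPM in YT-FF and 2.74 to 5.83 TPM in YT-AKO, with Krt5 at 0 in every library and only 2 of 6 abundant enough to test. Within a library, the log2 ratio of Aqp7 to Aqp3 per kilobase was 5.29, 5.08 and 6.14 in YT-FF and 6.63, 6.68 and 6.52 in YT-AKO. The difference of 1.11 had an exact permutation p of 0.1, the smallest that 3 against 3 libraries allow, and 0.133 after adjustment over the 4 ratios compared.

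Gk (chrX:85701937-85776819 in mm10, minus strand) rose in the libraries labelled YT-AKO. Its counts were 188, 239 and 240 in YT-FF and 559, 292 and 459 in YT-AKO, which is 8.01, 10.5 and 12.4 CPM against 32.5, 17.2 and 27.1 CPM. All 3 YT-AKO libraries were above all 3 YT-FF libraries, and YT-AKO 2 was the closest to them. In the fit, Gk had a log2 fold change of 1.32 (SE 0.281, 95% interval 0.67 to 1.97, edgeR adjusted p = 0.0238). It remained the second lowest of the 8 genes in level in both groups.

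The Gk call depended on the scaling and on single control libraries. With library totals alone in place of TMM the log2 fold change was 1.03 (edgeR adjusted p = 0.0526), and in TPM the groups overlapped, with a difference in mean log2 TPM of 0.61, since YT-AKO 2 stood at 3.90 TPM against 3.98 to 5.76 TPM in YT-FF. Without YT-FF 1, 2 or 3 the log2 fold change stayed between 1.16 and 1.47, and the edgeR adjusted p was 0.119, 0.119 and 0.0514. Without YT-FF 1 or YT-FF 2, at most 2 genes were called in the whole fit, so there the loss was not particular to Gk. Like Gk in CPM, the markers of beige and brown fat summed higher in every YT-AKO library than in YT-FF. Within YT-AKO 1 to 3 their sum was 6008, 10794 and 6743 TPM. It was thus highest in YT-AKO 2, where Gk was the lowest of that group. The part of beige and brown fat in the Gk counts was not tested. The intronless relatives Gk2 and Gykl1 had 0 counts in every library, and 0.914% of the 50-base words of the Gk exons also occur in other genes.

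Pck1 (chr2:173153048-173159273 in mm10, plus strand) was the most abundant of the 8 transcripts in the mean TPM of both groups. It stood at 1336, 2289 and 3047 CPM in YT-FF and at 3803, 2162 and 3142 CPM in YT-AKO. The groups overlapped, with YT-FF 1 the lowest library and YT-AKO 2 below both YT-FF 2 and YT-FF 3. The log2 fold change was 0.45 (SE 0.349, 95% interval -0.36 to 1.26, edgeR adjusted p = 0.359), an interval that holds both a small fall and a rise of more than 1 log2 unit. In mean log2 TPM the direction turned, at -0.19, with the downward shift common to all 8 members.

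Pck2 (chr14:55540266-55551242 in mm10, plus strand) encodes the mitochondrial carboxykinase. It stood at 43.9, 41.9 and 37.7 CPM in YT-FF and at 39.9, 80.2 and 52.8 CPM in YT-AKO, where YT-AKO 2 was high. Pck2 had a log2 fold change of 0.49 (SE 0.252, 95% interval -0.10 to 1.07, edgeR adjusted p = 0.184), which turned to -0.25 in mean log2 TPM. Pck2 made up 1.42%, 0.797% and 0.541% of the summed Pck1 and Pck2 TPM in YT-FF and 0.459%, 1.60% and 0.733% in YT-AKO. The log2 ratio of Pck1 to Pck2 differed by 0.06 between the groups (exact permutation p = 0.9), less than its spread between libraries, which was 0.708 (SD, n = 3) in YT-FF and 0.920 (SD, n = 3) in YT-AKO.

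Gpd1 (chr15:99717515-99725005 in mm10, plus strand), the cytosolic enzyme that reduces dihydroxyacetone phosphate to glycerol-3-phosphate, rose in the libraries labelled YT-AKO. It measured 889, 786 and 1088 CPM in YT-FF and 2589, 1871 and 2813 CPM in YT-AKO. The lowest YT-AKO library was above the highest YT-FF library. In the fit, Gpd1 had a log2 fold change of 1.40 (SE 0.242, 95% interval 0.84 to 1.96, edgeR adjusted p = 0.0182), the largest in size among the 8 genes in this fit.

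With YT-FF 1 or with YT-FF 2 left out, the Gpd1 log2 fold change was 1.37 and 1.29, and the edgeR adjusted p was 0.110 and 0.112. Leaving out either of these libraries left at most 2 called genes in the whole fit, so this loss was shared by nearly all calls. The difference in mean log2 TPM was 0.71, and there the groups overlapped through YT-AKO 2, at 1108 TPM against 1048 to 1325 TPM in YT-FF. Skeletal muscle also expresses Gpd1, and its 7 markers summed to 3980 TPM in YT-AKO 1 and to 205 to 685 TPM in the other 5 libraries. With YT-AKO 1 left out, Gpd1 had a log2 fold change of 1.35 (edgeR adjusted p = 0.0275), and the highest Gpd1 value was that of YT-AKO 3. The part of muscle in the Gpd1 counts was not tested. Exons of Gpd1 share 12.969% of their bases with Gm16537 on the other strand, which had 0 to 17 counts. Fragments over shared bases were left out of the counts of both genes.

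**Figure D2:**
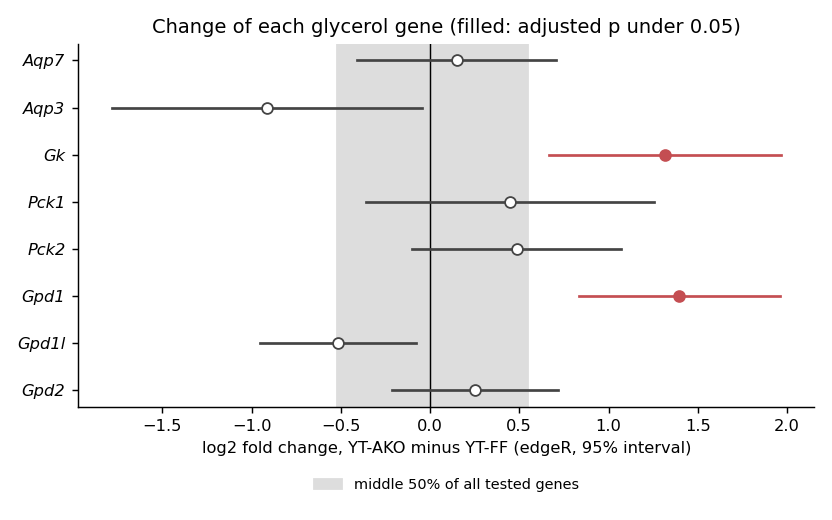
Log2 fold change (horizontal axis, YT-AKO minus YT-FF) of each glycerol gene from edgeR, with its 95% interval; filled points passed an adjusted p under 0.05 and the grey band holds the middle 50% of the log2 fold changes of all 16807 tested genes. Gk (1.32) and Gpd1 (1.40) lie above the band, and Aqp3 (-0.92) is the only point below it, with an interval that nearly reaches 0.

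Gpd1l (chr9:114899341-114933987 in mm10, minus strand) encodes a cytosolic protein related to Gpd1. It measured 82.4, 84.0 and 83.9 CPM in YT-FF, the tightest group of values among the 8 genes, and 63.8, 43.9 and 67.4 CPM in YT-AKO. All 3 YT-AKO libraries were below all 3 YT-FF libraries. The log2 fold change was -0.52 (SE 0.189, 95% interval -0.95 to -0.08), and Gpd1l was not called (edgeR adjusted p = 0.0821). It passed the threshold with library totals alone (log2 fold change -0.82, edgeR adjusted p = 0.0486) and without YT-AKO 2 (log2 fold change -0.35, edgeR adjusted p = 0.0478). The difference in mean log2 TPM, with the downward shift common to the members, was -1.22, also without overlap.

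Gpd2 (chr2:57237635-57370719 in mm10, plus strand) encodes the mitochondrial enzyme that oxidizes glycerol-3-phosphate back to dihydroxyacetone phosphate and passes the electrons to the respiratory chain. It measured 158, 145 and 159 CPM in YT-FF and 235, 149 and 167 CPM in YT-AKO. The groups overlapped, and only YT-AKO 1 stood clearly above the rest. Gpd2 had a log2 fold change of 0.25 (SE 0.201, 95% interval -0.22 to 0.72, edgeR adjusted p = 0.373), which turned to -0.46 in mean log2 TPM. Exons of Gpd2 share 7.436% of their bases with A930012O16Rik on the other strand, which had 28 to 77 counts.

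The balance of the dehydrogenases within a library needs no scaling factor. The log2 ratio of Gpd1 to Gpd1l per kilobase was 4.21, 4.0 and 4.47 in YT-FF and 6.12, 6.19 and 6.16 in YT-AKO. The 3 YT-AKO values lay within a narrow range (SD 0.0365, n = 3), although YT-AKO 2 stood apart from YT-AKO 1 and 3 in the level of each gene. The ratio was 3.81-fold higher in YT-AKO, and Gpd1l made up 4.30% to 5.87% of the summed TPM of both genes in YT-FF and 1.35% to 1.42% in YT-AKO. The exact permutation p was 0.1, the smallest possible, and 0.133 after adjustment. The log2 ratio of Gpd1 to Gpd2 was 3.63, 3.58 and 3.92 in YT-FF and 4.61, 4.80 and 5.22 in YT-AKO, a difference of 1.16 with the same exact p of 0.1. With a correction for gene length in each library these differences were 1.66 and 0.79, and over all tested genes the log2 fold change fell with exon length (Spearman's rho -0.376 across genes, which are not independent replicates).

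**Figure D3:**
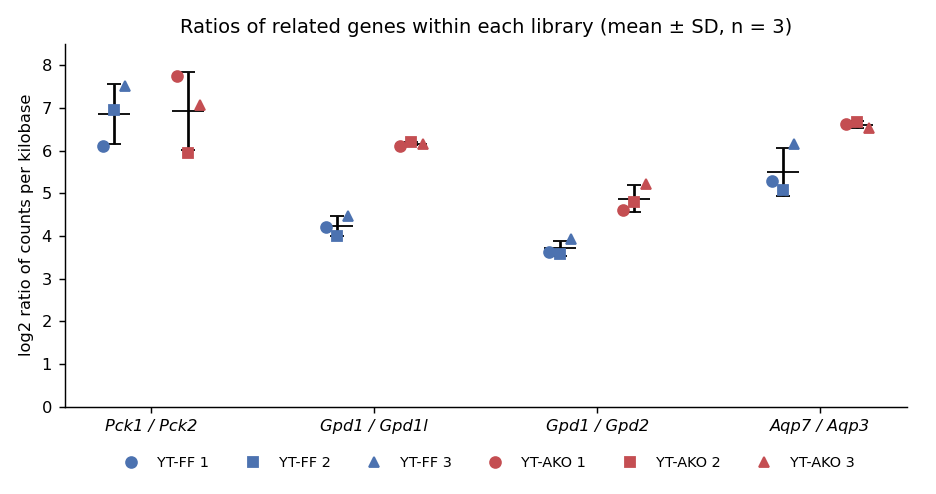
Log2 ratio of counts per kilobase (vertical axis) between related genes in each YT-FF (blue) and YT-AKO (red) library, with the mean ± SD in black. The groups overlap for Pck1 to Pck2 and are apart for Gpd1 to Gpd1l (4.0 to 4.47 against 6.12 to 6.19), Gpd1 to Gpd2 and Aqp7 to Aqp3.

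The levels were also set against adipocyte transcripts. The log2 ratio of each member to the summed TPM of 10 adipocyte markers was compared between groups. For Gk (difference -0.33), Gpd1 (-0.24) and Pck1 (-1.13) the groups overlapped. The ratios of Pck2 (-1.19), Gpd1l (-2.16), Gpd2 (-1.40), Aqp3 (-2.56) and Aqp7 (-1.45) were lower in all 3 YT-AKO libraries than in all 3 YT-FF libraries, each at an exact permutation p of 0.1, which was 0.16 after adjustment over the 8 genes. The sum was dominated by Cfd and was itself higher in all 3 YT-AKO libraries, which lowers the ratio of any gene there. No share of all genes that are lower on this measure is given, with or without Cfd. Without Cfd the groups were apart for Gpd1l (-1.37), Aqp3 (-1.76) and Aqp7 (-0.65), each lower at an exact permutation p of 0.1. They overlapped for Gk (0.46), Gpd1 (0.56), Pck1 (-0.34), Pck2 (-0.40) and Gpd2 (-0.60).

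The genes around the 8 members in the pathway were counted by list, each beside the 12.6% called higher and 9.01% called lower over all genes and the all-gene median of -0.02. Of 10 genes of glycerol release, 5 rose and 0 fell (median log2 fold change 0.71). Pnpla2, the first triglyceride lipase, stood at 2055, 2152 and 2709 CPM in YT-FF and 3701, 3797 and 4434 CPM in YT-AKO (log2 fold change 0.79, edgeR adjusted p = 0.0407). G0s2, an inhibitor of that lipase, rose, with 138 to 224 CPM in YT-FF and 552 to 835 CPM in YT-AKO (log2 fold change 1.83, edgeR adjusted p = 0.0166), and Hilpda, another inhibitor, rose by 1.17 on the log2 scale (edgeR adjusted p = 0.0287). Lipe and Ces1d, both lipases, also rose, by 0.84 (edgeR adjusted p = 0.0477) and 0.88 (edgeR adjusted p = 0.0344) on the log2 scale. The genes that rose in this list thus include lipases and inhibitors of Pnpla2.

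Of 16 genes on the way from glycerol-3-phosphate to triglyceride, among them phosphatases (Lpin1 to Lpin3) and acyltransferases of monoacylglycerol (Mogat1 and Mogat2), 4 rose and 0 fell (median 0.58). Gpat3, which adds the first acyl chain, rose by 1.09 on the log2 scale (edgeR adjusted p = 0.0203) and Agpat3, which adds the second, by 0.89 (edgeR adjusted p = 0.0207). Dgat2, the most abundant of the list and an enzyme of the last step, stood at 1484 to 1999 CPM in YT-FF and 2279 to 2551 CPM in YT-AKO without overlap but was not called (log2 fold change 0.52, edgeR adjusted p = 0.101).

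Of 15 genes on the way from pyruvate to oxaloacetate and malate, 5 rose and 0 fell (median 0.45). Mpc2, a subunit of the mitochondrial pyruvate carrier, rose, with 104 to 131 CPM in YT-FF and 336 to 767 CPM in YT-AKO (log2 fold change 2.16, edgeR adjusted p = 0.0171). Mdh2, mitochondrial malate dehydrogenase, rose by 1.66 on the log2 scale (edgeR adjusted p = 0.0171). Pcx, pyruvate carboxylase, which makes the oxaloacetate, was the most abundant of the list and was not called, at 971 to 1203 CPM in YT-FF and 995 to 1508 CPM in YT-AKO (log2 fold change 0.21, edgeR adjusted p = 0.493).

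Another list held genes between phosphoenolpyruvate and dihydroxyacetone phosphate, a stretch that glycolysis and glyceroneogenesis share for the most part, and genes next to it. Of its 11 tested genes, 5 rose and 0 fell (median 1.08). Among those that rose, Pkm and Aldoa lie next to this stretch and not within it. Pkm, a pyruvate kinase (log2 fold change 1.15, edgeR adjusted p = 0.0185), uses phosphoenolpyruvate to make pyruvate. Eno1, an enolase, rose, with 593 to 727 CPM in YT-FF and 1484 to 1973 CPM in YT-AKO (log2 fold change 1.37, edgeR adjusted p = 0.0171), and Aldoa, an aldolase, rose by 1.50 on the log2 scale (edgeR adjusted p = 0.0176). Some genes of this list are strongly expressed in muscle, and without YT-AKO 1, which had the highest sum of muscle markers, the list's median was 0.47, with 5 genes called.

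Of the other aquaporins, 3 of 9 were abundant enough to test and none was called. Aqp1, an endothelial water channel, was the most abundant at 352 to 464 CPM in YT-FF and 318 to 447 CPM in YT-AKO (log2 fold change -0.05, edgeR adjusted p = 0.877). Aqp9, another glycerol channel, stood at 0.824 to 1.66 CPM in YT-FF and 0.413 to 1.18 CPM in YT-AKO (log2 fold change -0.81, edgeR adjusted p = 0.277). Aqp11 had a log2 fold change of 0.69 (edgeR adjusted p = 0.257).

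Of 8 tested genes for other enzymes of glycerol and dihydroxyacetone, 3 rose and 1 fell (median 0.24). Akr1b3, an aldose reductase, rose, with 116 to 136 CPM in YT-FF and 279 to 517 CPM in YT-AKO (log2 fold change 1.65, edgeR adjusted p = 0.0171). Pgp, a phosphatase that can release glycerol from glycerol-3-phosphate, rose by 1.50 on the log2 scale (edgeR adjusted p = 0.0185) and Akr1a1, an aldehyde reductase, by 0.86 (edgeR adjusted p = 0.0257).

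Of 18 genes for regulators known for Pck1 or Gk in fat, 3 rose and 1 fell (median -0.06). Cebpb, a C/EBP transcription factor, rose, with 86.9 to 155 CPM in YT-FF and 325 to 552 CPM in YT-AKO (log2 fold change 1.86, edgeR adjusted p = 0.0177). At the protein level, the study reported by immunoblot that C/EBPβ was not changed in scWAT of YT-AKO mice. Creb1, which binds the cAMP response element, fell, with 69.2 to 83.3 CPM in YT-FF and 45.3 to 52.8 CPM in YT-AKO (log2 fold change -0.68, edgeR adjusted p = 0.0259). Cebpa was not called, at 772 to 1043 CPM in YT-FF and 1206 to 1476 CPM in YT-AKO (log2 fold change 0.58, edgeR adjusted p = 0.0724).

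When libraries were scaled by their totals, the all-gene median was -0.34, and the counts called higher were 2 for glycerol release, 2 for glycerol-3-phosphate to triglyceride with 1 lower, 4 for pyruvate to oxaloacetate, 5 for phosphoenolpyruvate to dihydroxyacetone phosphate, 2 for the other enzymes with 1 lower, and 1 for the regulators with 3 lower. The list medians then ran from -0.37 to 0.77, and that of the other enzymes turned to -0.08.

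**Figure D4:**
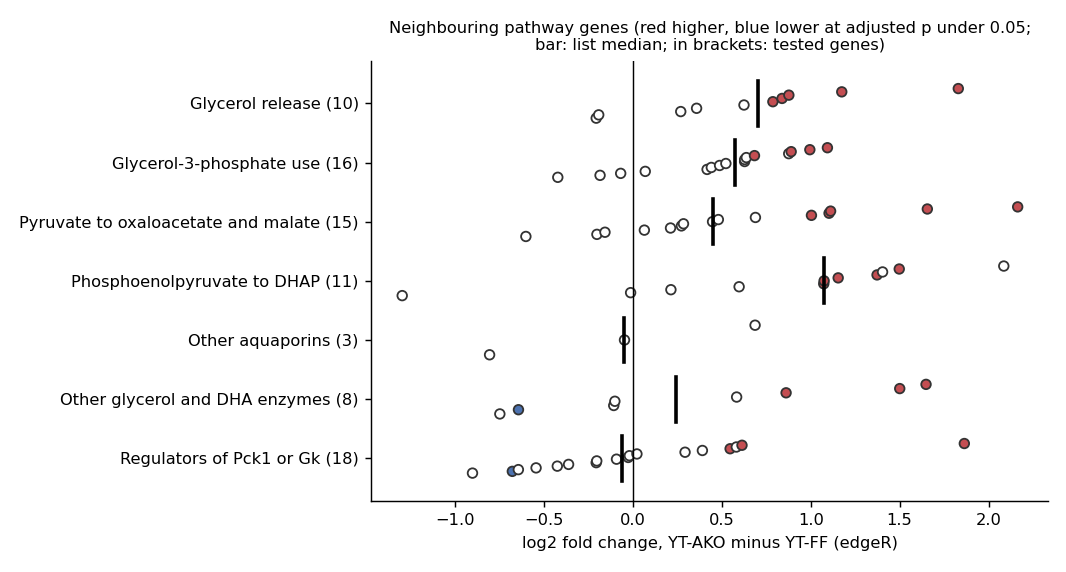
Log2 fold change (horizontal axis, YT-AKO minus YT-FF, edgeR) of every tested gene of the 7 pathway lists, with 1 row per list, the list median as a bar and genes called higher in red and lower in blue. The medians of the 4 upper lists lie between 0.45 and 1.08, and those of the other 3 between -0.06 and 0.24.

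The genes whose log2 CPM followed 3 of the members most closely over the 6 libraries were taken from 15163 tested genes with a mean of at least 1 CPM, and these correlations are a description over libraries that share their group difference. Gk was followed by Hsd17b12 (Pearson's r 0.997), Dlat (0.993) and Slc25a51 (0.993). Pck1, whose values spread within the groups, was followed by Armh4 (0.987), Rtn3 (0.975) and Gm14388 (0.973), and Aqp7 by Slc6a12 (0.981), Hfe (0.980) and Cavin1 (0.968). Hsd17b12, an enzyme of fatty acid elongation, stood at 157, 173 and 190 CPM in YT-FF and 341, 241 and 311 CPM in YT-AKO, the same order of libraries as Gk within each group.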

How the data were processed

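Genotype labels put the 6 scWAT RNA-seq libraries into 2 groups. The authors aligned paired-end reads to mm10 with HISAT2, and the deposited values are raw counts per gene from featureCounts v2.0.1 on GENCODE vM25 exons, without strand, normalization or filter; with these settings a fragment that fits more than 1 gene or place is not counted, so overlapping and near-identical genes lose counts. That the replicates were separate mice comes from the study's methods.

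Counts were tested in R 4.3.3 with edgeR 4.0.16 (TMM, filterByExpr with minimum count 10 and total 15, quasi-likelihood, Benjamini-Hochberg over 16807 genes, biological coefficient of variation 0.288). TPM used summed exon lengths. Ratios were compared by exact two-sided permutation tests. Alternatives were DESeq2 1.42.0, limma-voom (limma 3.58.1), other scalings and filters, robust estimation, a replicate block, a length correction by a spline with 6 degrees of freedom, stricter thresholds and each library left out; tests were checked on simulated counts.

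The genes and lists were chosen with earlier results of these data known. Every member is named, and from each list the 2 genes with the smallest p and the most abundant; the 3 genes most like Gk, Pck1 and Aqp7, the targeted genes and genes overlapping a member are named too. Other genes, such as Gk2, Gykl1, Krt5, Cfd, Pkm, Lipe, Ces1d, Lpin1 to Lpin3, Mogat1 and Mogat2, were named after their values were seen. Protein sequences and the Gpd1 promoter were not used here. With 3 counts as the floor, each library detects down to 0.1374 to 0.1691 CPM, for counting error only.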

Additional observations from a re-analysis of the deposited data

How the results depend on the processing

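Gk and Gpd1 kept a positive and Gpd1l and Aqp3 a negative log2 fold change in all 16 alternatives. Instead of 2 members called higher, library totals alone gave 1 (Gpd1), with 1 lower (Gpd1l). The thresholds of the study (log2 fold change beyond 1 at an adjusted p under 0.01) gave 0 when put on the edgeR fit. There, 21 of all 16807 genes passed them (0.125%). The study itself used DESeq2. In the DESeq2 fit made here, Gk (log2 fold change 1.31, DESeq2 adjusted p = 0.00045) and Gpd1 (1.39, DESeq2 adjusted p = 6.39e-07) were beyond these thresholds. Leaving out 1 library gave 0 to 2 higher and 0 to 1 lower. Gpd2 (-0.06) and Aqp7 (-0.15), neither called, were below 0 with library totals.

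The replicate number as a block left 0 members called higher, also with the length correction. The Gk log2 fold change was then 1.29 (edgeR adjusted p = 0.0637) and that of Gpd1 1.39 (edgeR adjusted p = 0.0584), and over all genes 24 were called higher and 9 lower, against 2121 and 1515 without the block (59 and 22 with the length correction as well). Deviations of same-numbered libraries correlated at 0.139, -0.134 and -0.091, and not every library correlated best with its own number. With 3 libraries a group, such correlations cannot decide whether the numbers pair the samples.

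Over all genes, without YT-FF 1 there were 0 calls and without YT-FF 2 there were 2. Without YT-FF 3 there were 704 higher and 528 lower, without YT-AKO 2, 2925 and 2424, and without YT-AKO 3, 1784 and 895. The higher share of calls was 58.3%, but 28.7% with library totals (1137 higher, 2828 lower) and 68.9% with the length correction (1692 and 763).

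After seeing the data, 2 alternatives were added. With the length correction the log2 ratio of Gpd1 to Gpd1l differed by 1.66 and that of Gpd1 to Gpd2 by 0.79, against 1.93 and 1.16. As mean log2 TPM, the differences were 0.61 for Gk, 0.71 for Gpd1, -1.22 for Gpd1l and -1.61 for Aqp3, and those of Pck1 (-0.19), Pck2 (-0.25), Gpd2 (-0.46) and Aqp7 (-0.51) were below 0. Every member shifted downward from the edgeR fit by a similar amount, so the turned signs are not particular to these genes.

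With 1 library left out, differences of the log2 ratios ran from 1.82 to 2.05 for Gpd1 to Gpd1l and from -0.36 to 0.55 for Pck1 to Pck2. In the 250 bases before the start alone, 2 member windows held TGTTCT instead of 3. Exact tests of 3 against 3 libraries cannot go below 0.1. Aqp3 had the lowest counts of the 8 genes, 14 to 53 a library.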

Other observations

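The level of Gk relative to Pck1, a ratio chosen after its values were seen, was 0.266%, 0.203% and 0.180% of the Pck1 TPM in the YT-FF libraries and 0.378%, 0.353% and 0.382% in those labelled YT-AKO. The groups did not overlap, and YT-AKO 2, which was low in the TPM of both genes, lay close to the other YT-AKO libraries. No test was made of this ratio.

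Aqp2 and Aqp8, neither abundant enough to test, had no counts in the 3 YT-FF libraries and were counted in all 3 YT-AKO libraries, with 2 to 6 counts a library for Aqp2 and 3 to 8 for Aqp8. The 2 counts of Aqp2 in YT-AKO 2 were below the floor of 3 counts. This pattern was picked after the values were seen, and no share of all genes with it is given.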
